A study of Mus musculus with 24 samples.

Results

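A group of 149 protein-coding genes had higher RNA levels in cultured mouse cortical neurons without Smarcc2 than in control neurons, both at rest and after depolarization. They were chosen by these differences: for each of the 11073 protein-coding genes (of 21910) with a mean of at least 5 CPM (counts scaled to a common library total) over the 6 libraries with the Smarcc2 guide RNA and an empty vector, the log2 ratio of their means to the control means, after adding 1 CPM to each, was taken at rest and under KCl, and the 150 genes whose smaller ratio was highest were kept. Pgk1, which had the second highest smaller ratio, was left out by the rule, so that 149 genes remained, 1.35% of those past the level filter. The empty-vector and control values below therefore describe the choice and carry no test. Tests are given for comparisons that use neither of these groups.

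Smarcc2 encodes a core scaffold subunit of the BAF (SWI/SNF) complexes, which use ATP to slide and evict nucleosomes and so open or close DNA to transcription factors. Its close relative Smarcc1 holds the same place in the complex, and maturing neurons exchange several subunits for neuronal forms. Neurons respond to depolarization with calcium entry and a fast wave of transcription, in which BAF complexes are known to take part.

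The neurons came from mouse embryos at embryonic day 16.5, and the cortex of each embryo counted as a biological replicate in the labels' protocols. At 18 days in vitro (DIV18) the control cultures carried a non-targeting CRISPR guide RNA (NT, 2 at rest and 2 under KCl), and the knockout cultures a guide RNA against Smarcc2 and, in addition, 1 of 4 constructs: empty vector (3 and 3), Smarcc2 of wild-type sequence (WT, 2 and 3), the S586E form (3, rest only) or the S586A form (2, KCl only). S586E and S586A replace a serine that the study examined as a phosphorylation site. A second set of 4 libraries came from neurons without these constructs at 7 days in vitro (DIV7), treated with 0.1% DMSO, 2 at rest and 2 under KCl. All cultures were silenced overnight with 1 µM tetrodotoxin, a sodium channel blocker, and 100 µM D-AP5, an NMDA receptor blocker. KCl was then given at 50 mM for 30 min to the depolarized ones. The labels do not say whether the NT cultures also carried an empty vector, nor how cells with the guide RNA were selected, and every culture is a mixture of cells.

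At DIV18 a library held 14510199 to 24024959 estimated counts. The vector libraries were among the lowest (14510199 to 19177644) but overlapped S586A (18379962 to 19448891) and S586E (18890480 to 24024959). At DIV7 a library held 24536056 to 30135576. Smarcc2 itself, on chromosome 10 (128459248 to 128490482, GRCm38), was at 265 and 237 CPM in resting NT, at 47.1, 49.8 and 64.1 CPM in resting vector, at 816 and 756 CPM in WT and between 1164 and 1276 CPM in S586E. Under KCl it was at 274 and 283 CPM in NT, at 47.5 to 60.0 CPM in vector, at 737 to 1089 CPM in WT and at 1340 and 1303 CPM in S586A. These levels match the labels, and the added Smarcc2 stood above the NT level in every construct. Smarcc1 was at 88.5 and 102 CPM in resting NT and at 89.0 to 94.5 CPM in resting vector. Pgk1, a glycolytic enzyme, was at 512 and 570 CPM in resting NT, at 1269 to 1292 CPM in resting vector, at 571 and 588 CPM in WT and at 403 to 479 CPM in S586E. With KCl it was at 1367 to 1671 CPM in vector and at 665 CPM or less in every other library. The rule states no reason for leaving Pgk1 out, and whether construct sequence adds to these reads was not tested.

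Summed levels of cell type markers differed between the same groups. The summed level of 12 astrocyte markers was 1785 to 1956 CPM in resting NT and 982 to 1514 CPM in resting vector, and 1565 to 2166 against 905 to 1025 CPM under KCl. The oligodendrocyte list was at 215 to 230 CPM in resting NT and 144 to 163 CPM in resting vector, and under KCl it overlapped (140 to 228 and 121 to 142 CPM). Gpr17 and Sox10 were at 0 in every resting vector library but not in every vector library under KCl. Their levels in NT are not reported here. Proliferation markers were at 230 to 272 CPM in resting NT and 83.8 to 173 CPM in resting vector, and at 182 to 265 and 114 to 136 CPM under KCl. At rest 3 of 12 astrocyte, 6 of 13 oligodendrocyte and 4 of 16 proliferation markers tested were called lower. Under KCl 3, 4 and 1 were called lower. The neuron list was at 5722 to 6016 CPM in resting NT and 5421 to 6252 CPM in resting vector. Under KCl the neuron list was at 5836 to 6680 CPM in NT and lower, at 5129 to 5259 CPM, in vector (3 of 16 called lower). The inhibitory neuron list was at 457 to 496 and 253 to 336 CPM under KCl (2 of 15 called lower). The excitatory neuron list, which holds the chosen gene Slc17a6, was then at 4636 to 4684 and 3845 to 4311 CPM (0 of 14 called lower). At rest the inhibitory list overlapped, at 297 to 405 CPM in NT and 201 to 578 CPM in vector. The excitatory list also overlapped at rest, at 4807 to 5057 and 4119 to 4927 CPM (2 of 14 called higher). Microglial markers were low in resting NT and resting vector (27.3 to 28.6 and 23.1 to 28.1 CPM), and only 6 of 12 had enough counts to be tested. C1qa, C1qb, C1qc, Fcrls and Tmem119 were at 0 in resting vector, and their levels in NT are not reported here. The part of these differences in the levels of the 149 genes was not tested, and in such bulk samples fewer cells of a type and less RNA per cell cannot be told apart. Of the astrocyte, oligodendrocyte, microglial and proliferation markers, 10, 3, 1 and 6 passed the level filter. With 1.35% of all genes past it chosen, lists this short say little, and none of these markers was among the 149 genes. Rgs5, a pericyte marker, was among them, and the vessel list without it was at 15.4 to 18.1 CPM in resting NT and 10.3 to 21.3 CPM in resting vector.

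**Figure D1:**
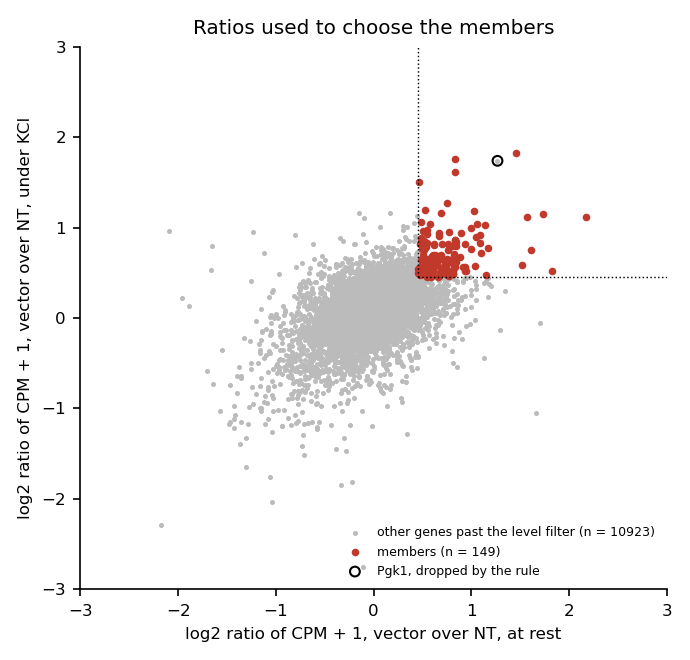
Log2 ratio of vector to NT means at rest (x axis) and under KCl (y axis), with 1 CPM added, for the 11073 genes past the level filter; the 149 chosen genes are coloured. They fill the upper right corner by construction, with a smaller ratio between 0.457 and 1.46.

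Most of the differences were modest in size. The smaller of the 2 log2 ratios had a median of 0.56 over the 149 genes and reached 1.46. At the limit, the last genes inside were Zfp961 (0.4574), 2810021J22Rik (0.4573) and Nkrf (0.4569), and the first outside were Kcna4 (0.4560), Ypel2 (0.4546) and Klhl4 (0.4539), so membership there rests on differences far smaller than the spread between libraries. All 3 resting vector libraries lay above both NT libraries for 122 genes (17.3% of genes past the level filter), and under KCl for 127 (18.1%). In both states this held for 108 genes (6.15%), and in 91 every vector library of either state lay above every NT library of either state (4.27%). The states are not independent, since resting and KCl vector libraries of the same number deviated together across genes (correlations 0.150, 0.140 and 0.333). In edgeR's quasi-likelihood fit over all DIV18 libraries, 67 of the 149 passed an adjusted p of 0.05 as higher in vector at rest (2.13% of 20940 genes tested) and 33 did so under KCl (0.726%); since the rule used this contrast, these counts describe the choice. They moved with single libraries, to 11 without NT replicate 2 at rest and to 1 without NT replicate 2 under KCl.

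Replicate 3 of the knockout cultures stood apart from replicates 1 and 2 for part of the group. It was the highest vector library in both states for 42 of the 149 genes (28.2%, against 14.0% of genes past the level filter). In 33 of these 42 it was also the highest library of WT under KCl and of S586E at rest, as in 656 of the 1553 genes past the level filter with replicate 3 highest in both vector groups. For 10 genes (0.316% of genes past the filter did so) it exceeded the mean of the other vector libraries by more than 1.5 times in both states, among them Sdf2l1, Gm43517, Cd46, Ostn, Crh, Creld2, Amy1, Kpna2 and Vmn1r55. For 4 (Gm10800, Nmb, Krt80 and Dlk1) it was lower by that margin (0.677%). Replicate 3 had the highest retained-intron share of counts in each of these 4 groups (1.89% to 2.05%, against 1.43% to 1.88% in replicates 1 and 2). Its mitochondrial share was 8.16% in resting vector (5.5% and 4.20% in the others) and 7.56% in WT under KCl (5.87% and 4.96%), while in vector under KCl it lay between the others. The part of these signs in the levels was not tested. Without vector replicate 3, 145 of the 149 genes kept both ratios above 0, 97 still reached the limit of the rule in both states, and the median smaller ratio was 0.52.

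**Figure D2:**
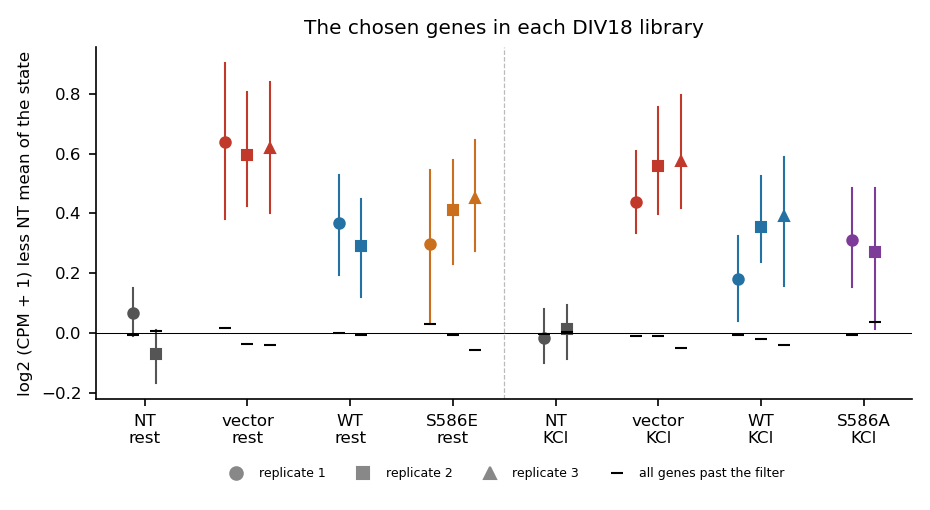
Median log2 level of the 149 genes in each DIV18 library relative to the NT mean of the same state, by group and replicate. The vector libraries lie at 0.60 to 0.64 at rest and at 0.44 to 0.58 under KCl. The WT and S586E libraries at rest lie at 0.29 to 0.45, and the WT and S586A libraries under KCl at 0.18 to 0.39. Each lies above NT and below the vector libraries of its own state.

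The regulatory sequence in front of 3 of the genes is shown because each holds the recognised site of a signal that neurons use. Scg2 carries the cyclic AMP response element bound by CREB, the factor of activity-driven transcription. Creld2 carries an ER stress element, bound by ATF6 when unfolded protein accumulates. Ciart carries E-boxes, bound by CLOCK and BMAL1 of the circadian clock and by other basic helix-loop-helix factors. Each run holds the 200 bases before the RefSeq start (build GRCm38.p6), written 5′ to 3′ on the strand of the gene, with the site in capitals. Scg2 lies on the minus strand (chr1:79440027-79440226), with the site 68 bases before the start. Creld2 lies on the plus strand (chr15:88819446-88819645), with the site, read on the opposite strand, 126 bases before the start. Ciart lies on the minus strand (chr3:95882229-95882428), with sites 116, 58 and 44 bases before the start.
Scg2: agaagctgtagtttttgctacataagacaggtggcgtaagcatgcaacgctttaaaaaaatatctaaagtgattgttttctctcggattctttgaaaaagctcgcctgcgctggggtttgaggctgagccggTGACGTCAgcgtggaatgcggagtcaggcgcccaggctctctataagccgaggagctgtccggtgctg
Creld2: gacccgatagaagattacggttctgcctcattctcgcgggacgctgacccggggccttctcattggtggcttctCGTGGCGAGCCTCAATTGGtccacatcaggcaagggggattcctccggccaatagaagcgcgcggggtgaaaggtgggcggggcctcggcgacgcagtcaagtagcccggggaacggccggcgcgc
Ciart: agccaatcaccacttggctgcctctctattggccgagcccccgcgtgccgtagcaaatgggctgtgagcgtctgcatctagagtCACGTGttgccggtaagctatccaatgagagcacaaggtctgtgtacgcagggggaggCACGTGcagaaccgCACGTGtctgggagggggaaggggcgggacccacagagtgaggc
Promoter windows around the start were taken from RefSeq for 111 of the 149 genes (139 promoters) and for 8708 genes past the level filter (11320 promoters), and both strands were searched. TGACGTCA was in 2.16% of the 139 and 3.17% of all, the AP-1 site TGANTCA in 5.04% and 4.50%, the E-box CACGTG in 4.32% and 10.1%, the ER stress element in 0.719% (Creld2 alone) and 0.133%, and TATAAA in 12.9% and 6.56%. The promoters of the group held fewer CpG dinucleotides (median 13 against 21) and less G and C (57% against 61.7%). These shares are descriptions: neighbouring promoters of a gene overlap, and a match of letters is not a bound site.

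Secreted peptides and the membrane ligand Dlk1 formed a group of 7 genes: Nmb, Scg2, Pdyn, Crh, Nppc, Ostn and Dlk1. Of the fixed neuropeptide list, 35 genes were tested in vector against NT, of which 2 were called higher and 1 lower at rest, and 2 lower under KCl. Nmb encodes neuromedin B, a bombesin-family peptide (chromosome 7, 80902227 to 80905076, minus strand). It was at 4.84 and 4.13 CPM in resting NT and at 10.8, 12.1 and 7.26 CPM in resting vector; under KCl the values were 5.16 and 5.66 CPM in NT and 12.5, 13.6 and 7.50 CPM in vector. All vector libraries were above NT, with replicate 3 lowest in both states. WT left it high at rest (11.4 and 9.02 CPM), whereas S586E gave 6.92, 6.16 and 4.28 CPM. With KCl, WT gave 8.51, 9.77 and 4.97 CPM, of which 2 lay within the vector range and 1 below it, and S586A gave 13 and 9.95 CPM, both within it. Among the 7 genes, Nmb was the only gene whose vector libraries were all above NT in both states. Over all 149 genes this held for 108 (72.5%), and for 6.15% of genes past the level filter. The rule favours such separation, so counts of this kind by role, here and below, describe the choice.

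Scg2 encodes secretogranin II, a protein of dense-core granules and the source of secretoneurin, and it is a late gene of the activity response. Its level in resting NT was 415 and 322 CPM and in resting vector 491, 603 and 772 CPM. Under KCl it was at 424 and 534 CPM in NT and 529, 682 and 858 CPM in vector, where replicate 1 lay within the NT range. At rest WT was at 519 and 473 CPM and S586E at 436, 489 and 672 CPM, both overlapping vector. Crh encodes corticotropin-releasing hormone. It was at 6.37 and 2.66 CPM in resting NT and at 2.15, 3.27 and 15.5 CPM in resting vector, so that its place in the group rested on replicate 3 alone. That replicate was high for Crh under KCl as well (22.7 CPM against 4.92 and 9.55), in WT (15 against 4.06 and 6.07) and in S586E (9.09 against 3.4 and 6.33). Ostn, the precursor of osteocrin, repeated this in resting vector (13.0 CPM against 2.05 and 1.27). Dlk1, a membrane protein with EGF repeats from an imprinted locus, ran the other way, at 148, 171 and 105 CPM in resting vector with NT at 52.6 and 28.0 CPM. Under KCl its groups overlapped, with NT at 73.5 and 119 CPM and vector at 126, 162 and 94.5 CPM. Pdyn, the precursor of dynorphins, overlapped between groups at rest (3.02 and 2.11 CPM in NT, 6.68, 4.06 and 2.36 CPM in vector).

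Receptors coupled to G proteins, with the proteins that carry or end their signal, gave 11 genes. For 10 of them all vector libraries lay above NT in both states (72.5% of the 149 genes, 6.15% of genes past the level filter). Gnb4 was the exception. Over the fixed list of G protein signalling, 186 genes were tested and the calls ran in both directions, 7 higher and 10 lower at rest and 8 lower under KCl. Hrh1, the histamine H1 receptor, was at 12.4 and 12.8 CPM in resting NT and 21.6, 25.5 and 26.0 CPM in resting vector. Under KCl it was at 13.7 and 13.2 CPM in NT and 24.9, 24.9 and 18.4 CPM in vector. The groups were clear of each other in both states. At rest WT (19.8 and 18.8 CPM) and S586E (13.4, 19.95 and 18.4 CPM) lay between them, while S586A (19.2 and 21.3 CPM) overlapped vector.

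The serotonin receptor Htr2a was at 3.14 and 2.29 CPM in resting NT and 5.65, 6.86 and 3.18 CPM in resting vector. The neuropeptide Y receptor Npy1r was at 5.05 and 3.58 CPM and at 10.8, 5.96 and 7.96 CPM in the same groups. Mrgpre, an orphan receptor of the Mas family, was at 10.0 and 9.64 CPM in resting NT and 17.4, 16.9 and 19.2 CPM in resting vector. The margin was wide for Mrgpre and almost nil for Htr2a. Rgs5 and Rgs16 speed the switch-off of G proteins. Rgs5 was at 13.6 and 7.66 CPM in resting NT and 29.9, 26.9 and 43.9 CPM in resting vector, and it stayed high with WT (34.1 and 22.3 CPM) and S586E (27.1 to 34.5 CPM). Rgs16 was at 12.9 and 13.3 CPM in resting NT and 25, 26.5 and 15.2 CPM in resting vector. Adcy8, an adenylyl cyclase switched on by calcium, was at 24.4 and 22.4 CPM in resting NT and 30.3, 33.0 and 42.7 CPM in resting vector. Gnb4, a G protein beta subunit, had a resting vector library (11.3 CPM) below both NT libraries (13.5 and 12.1 CPM). Npffr1, a receptor for neuropeptide FF, was at 4.21 and 4.13 CPM in resting NT and 5.39, 7.33 and 8.15 CPM in resting vector, and at 2.75 and 3.74 CPM and 4.35, 7.35 and 7.82 CPM under KCl. Gpsm2, which binds G protein alpha subunits, and Plcl1, a phospholipase C-like protein without catalysis, were clear of NT with ratios of 0.51 to 0.62.

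Channels, ionotropic receptors and transporters gave 8 genes. In all 8 every vector library of either state stood above every NT library of either state. The same held for 91 of the 149 genes (61.1%) and for 4.27% of genes past the level filter. Kcnf1 encodes a potassium channel subunit that is silent alone and modifies Kv2 channels. It was at 125 and 110 CPM in resting NT and 187, 195 and 173 CPM in resting vector, and under KCl at 114 and 121 CPM and at 167, 187 and 173 CPM. Trpc4, a cation channel opened downstream of phospholipase C (chromosome 3, 54156035 to 54318471, plus strand), was at 19.3 and 17.8 CPM in resting NT and 30.5, 28.9 and 33.0 CPM in resting vector. With S586E it was at 29.4, 29.2 and 30.2 CPM, within the vector range and above WT (24.2 and 25.7 CPM), a difference that did not pass the adjustment (log2 0.25, SE 0.0915, edgeR adjusted p = 0.263). Slc17a6, the vesicular glutamate transporter VGLUT2, was at 21.4 and 15.5 CPM in resting NT and 38.5, 33.1 and 27.3 CPM in resting vector, and under KCl at 21.7 and 22.6 CPM and at 31.8, 31.5 and 29.3 CPM. The others included the sodium-activated potassium channel Kcnt2, the anoctamin Ano3, the sodium-calcium exchanger Slc8a3 and the GABA-A receptor subunit Gabrg3, with ratios of 0.47 to 0.81 at rest. Of 76 potassium channel genes tested in vector against NT, 5 were called higher and 5 lower at rest, and 4 and 3 under KCl.

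Vesicle release and trafficking gave 6 genes, led by Syt10, a calcium sensor of the synaptotagmin family (chromosome 15, 89782393 to 89841860, minus strand). Syt10 was at 18.1 and 13.4 CPM in resting NT and 36.4, 35.2 and 33.5 CPM in resting vector, and under KCl at 19.6 and 18.0 CPM and at 31.1, 41.6 and 36.6 CPM. In WT it was at 25.4 and 22.4 CPM at rest, in S586E at 25.3, 24.4 and 25.4 CPM and in S586A at 30.8 and 22.1 CPM, each below every vector library of its state. Baiap3, which acts in dense-core vesicle release, was at 4.84 and 3.99 CPM in resting NT and 13.2, 14.1 and 5.03 CPM in resting vector. Here replicate 3 sat close to NT. Doc2a, a sensor for asynchronous release, was at 21.5 and 22.6 CPM in resting NT and 36.5, 31.4 and 23.6 CPM in resting vector. Hap1, the huntingtin-associated protein, was at 64.3 and 48.6 CPM in resting NT and 140, 137 and 95.0 CPM in resting vector, but under KCl vector replicate 1 (78.7 CPM) was below an NT library (89.8 CPM). Rab26, a vesicle GTPase, had its replicate 3 (12.5 CPM at rest) below an NT library (14.6 CPM). Of 42 synaptic vesicle genes tested, 3 were called higher and 1 lower at rest, and 2 and 4 under KCl.

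Adhesion and guidance molecules made up 16 genes, the largest of the role groups apart from transcription and RNA. In 15 the vector libraries all lay above NT in both states (72.5% of the 149 genes, 6.15% of genes past the level filter). Tenm1 was the exception. Clustered protocadherins, surface proteins that give neurons an identity, contributed Pcdhb3, Pcdhb7, Pcdhb9 and Pcdhb10 from a single array on chromosome 18 (37300799 to 37414514). Their ratios were 0.51 to 0.70 at rest and 0.51 to 0.60 under KCl. These neighbours share sequence, so the assignment of reads among them is uncertain. Of 99 cadherins and protocadherins tested, 8 were called higher and 3 lower at rest, and 1 and 1 under KCl.

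Lrrtm4 and Lrrtm3 are leucine-rich repeat proteins of the excitatory postsynapse. Lrrtm4 (chromosome 6, 80018877 to 80810143, plus strand) was at 20.2 and 19.3 CPM in resting NT and 40.5, 34.4 and 30.8 CPM in resting vector, and under KCl at 20.1 and 23 CPM and at 30.1, 29.9 and 33.8 CPM. Its WT (27.2 and 28.5 CPM) and S586E libraries (29.4, 29.8 and 29.7 CPM) filled the gap at rest. Unc5c, a netrin receptor, was at 30.7 and 24.2 CPM in resting NT and 56.6, 51.8 and 49.9 CPM in resting vector. Sdk2, a homophilic adhesion protein of synaptic layers, was at 58.7 and 51.7 CPM in resting NT and 130, 131 and 73.6 CPM in resting vector, with WT at 72.6 and 64.7 CPM. Tenm1, a teneurin, was at 77.5 and 56.3 CPM in resting NT and 115, 109 and 115 CPM in resting vector, but under KCl the vector value of replicate 1 (92.0 CPM) fell just under an NT library (92.3 CPM). Kirrel3, an immunoglobulin protein of synapses, was at 24.9 and 23 CPM in resting NT and 59.1, 43.2 and 33.6 CPM in resting vector, and Cntn6, a contactin, at 8.24 and 7.16 CPM and at 16.5, 11.7 and 11.7 CPM. Pcdh20 and Cdh18, members of the cadherin superfamily, and Lrrc3b, a leucine-rich repeat protein, were clear of NT in both states, with resting ratios of 0.78, 0.49 and 0.70. Of 68 synaptic adhesion genes tested, 6 were called higher and 4 lower at rest, and 2 and 5 under KCl.

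The growth cone and cytoskeleton group held 11 genes, of which 6 were clear of NT in both states (72.5% of the 149 genes, 6.15% of genes past the level filter). Gap43, the growth-associated protein of axons, was at 117 and 100 CPM in resting NT and 136, 153 and 188 CPM in resting vector. Under KCl it was at 102 and 132 CPM and at 132, 148 and 206 CPM, so that the groups touched. Marcksl1, an actin-binding substrate of protein kinase C, was at 93.0 and 81.4 CPM in resting NT and 153, 161 and 116 CPM in resting vector. Mark4, a microtubule-affinity kinase, scattered too widely to place, with 24.1, 9.23 and 12.4 CPM in resting vector, 8.84 and 5.19 CPM in NT and 2.10, 12.9 and 16.1 CPM in vector under KCl. Kifc3, a minus-end kinesin, was at 27.7 and 25.6 CPM in resting NT and 50.7, 47.4 and 31.1 CPM in resting vector, and at 26.3 and 29.0 CPM and 45.7, 48.4 and 43.3 CPM under KCl. Hook1, a dynein adaptor, Nyap2, a partner of PI3 kinase, Pfn4, a profilin, and Myl4, a myosin light chain, were clear of NT as well. Tes and Krt80 overlapped NT in at least 1 state, and Krt80 went from 2.36 to 12 CPM among resting vector libraries.

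Matrix proteins and secreted proteases gave 8 genes. Adamts15, a protease that cuts hyalectan proteoglycans (chromosome 9, 30899155 to 30922452, minus strand), was at 8.24 and 10.8 CPM in resting NT and 27.0, 20.6 and 12.5 CPM in resting vector. Under KCl it was at 8.72 and 9.50 CPM and at 18.5, 23.1 and 19.2 CPM, a difference wider than the spread within either group. In WT it was at 13.6 and 11.3 CPM at rest and 15.7, 15.2 and 11.6 CPM under KCl. Col23a1, a membrane collagen, was at 2.97 and 2.11 CPM in resting NT and 7.49, 4.64 and 1.59 CPM in resting vector, where replicate 3 was below NT. Adam19, a membrane metalloprotease, was at 10.3 and 11 CPM in resting NT and 15.4, 15.7 and 15.6 CPM in resting vector. Thsd4 and Scube3, secreted proteins of the matrix, were also clear of NT in both states, while Ccbe1, which helps process VEGF-C, was not (5.18 and 7.89 CPM in resting NT, 8.72, 7.28 and 11.9 CPM in resting vector). Of 136 extracellular matrix genes tested, most calls were lower: 3 higher and 15 lower at rest, and 1 and 9 under KCl.

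Ciliary genes numbered 7. Erich3, a protein of the primary cilium (chromosome 3, 154663859 to 154767790, plus strand), had the largest resting ratio of the 149 genes. It was at 2.8 and 2.06 CPM in resting NT (2.43 ± 0.522, SD, n = 2) and at 17.1, 14.6 and 9.43 CPM in resting vector (13.7 ± 3.90, SD, n = 3). Under KCl the distance was smaller, with 3.17 and 3.84 CPM in NT and 7.07, 9.25 and 7.63 CPM in vector. At rest WT was at 5.88 and 3.42 CPM and S586E at 8.46, 8.24 and 8.78 CPM, below every vector library in both cases. Dnah5 and Dnah6 are heavy chains of axonemal dynein, Drc1 belongs to the complex that regulates it, and Cfap44 is a flagellar protein. Dnah6 was at 6.2 and 4.50 CPM in resting NT and 9.75, 8.65 and 8.6 CPM in resting vector, and Cfap44 at 3.06 and 1.97 CPM and at 5.06, 4.06 and 5.92 CPM. Efcab1, an EF-hand protein, differed more under KCl (4.93 and 6.88 CPM in NT, 11.6, 12.6 and 10.04 CPM in vector) than at rest (5.82 and 5.92 CPM, and 9.53, 8.6 and 7.39 CPM). The kinase gene Nek10 touched NT under KCl, with 5.82 CPM in an NT library and 5.68 CPM in a vector library. Of 146 ciliary genes tested, 8 were called higher and 4 lower at rest, and 2 and 2 under KCl.

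Sdf2l1, Creld2 and Pdia4 assist protein folding in the endoplasmic reticulum, and in none of the 3 did all vector libraries clear NT in both states. Creld2 was at 11.3 and 13.0 CPM in resting NT and 11.6, 13.7 and 27.9 CPM in resting vector. Under KCl it was at 11.3 and 8.80 CPM and at 15.4, 16.3 and 23.8 CPM. Replicate 3 was also the highest library of WT under KCl (25.5 CPM against 14.7 and 14.3) and of S586E (19.9 against 9.17 and 10.5). Sdf2l1 had the same shape, with 12.6 and 17.5 CPM in resting NT and 16.9, 20.5 and 38.7 CPM in resting vector. Of 20 heat shock and folding genes tested, the only call in vector against NT was Pdia4, higher under KCl, itself chosen on this contrast. None of the 17 genes of the integrated stress response list that passed the level filter was among the 149. With 1.35% of all genes past that filter chosen, a list this short says little.

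Factors of transcription and RNA gave 18 genes, 16 of them clear of NT in both states (72.5% of the 149 genes, 6.15% of genes past the level filter). Mycl, a MYC-family factor, was at 7.01 and 9.36 CPM in resting NT and 19.9, 19.6 and 14.5 CPM in resting vector, and under KCl at 10.8 and 7.63 CPM and at 17.1, 18.0 and 15.5 CPM. The repressor of the circadian clock Ciart was at 12 and 13.6 CPM in resting NT and 25.3, 21.9 and 22.2 CPM in resting vector, and at 14.2 and 13.3 CPM and 21.7, 23.2 and 25.5 CPM under KCl. Zfp811, a zinc finger gene, was at 11.0 and 9.96 CPM in resting NT and 23.9, 21.0 and 23.9 CPM in resting vector, with WT back at 12.2 and 12.7 CPM. For these 3 factors every vector library stood clear of NT in both states. The linker histone gene Hist1h1d was at 13.2 and 13.2 CPM in resting NT, 16.8 to 19.4 CPM in resting vector and 23.7 and 19.7 CPM in WT, so that WT was highest. Thrb, a thyroid hormone receptor, and Axin2, a target and brake of Wnt signalling, had ratios of 0.52 at rest and 0.56 under KCl. Mettl3, the catalytic subunit of the enzyme that methylates adenosine in messenger RNA, was at 10.2 and 9.50 CPM in resting NT and 16, 11.6 and 15 CPM in resting vector. Plag1, Zfhx4, Bend5, Ints6l and Rbm12b2 were clear of NT in both states with resting ratios of 0.47 to 0.84. Zfp40 was not, and Pagr1a ran from 1.00 to 13.1 CPM in resting vector.

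Outside these roles, Tent5a, a non-canonical poly(A) polymerase, was at 1.36 and 0.551 CPM in resting NT and 5.60, 4.80 and 2.74 CPM in resting vector. Pidd1, part of a platform that activates caspase-2, was at 5.44 and 7.25 CPM in resting NT and 10.3, 11.0 and 13.9 CPM in resting vector. It differed more under KCl, where NT was at 5.07 and 5.02 CPM and vector at 15.3, 17.1 and 15.6 CPM. Calb1, the calcium buffer calbindin, was at 5.82 and 6.01 CPM in resting NT and 16.2, 10.5 and 7.83 CPM in resting vector. Rtl5, a gene derived from a retrotransposon on the X chromosome, was at 20.4 and 17.3 CPM and at 43.8, 37.1 and 32.4 CPM. Rtl5 lies within Nhsl2 on the other strand, and unless the assignment used strand, which the sources used here do not state, the reads of this pair cannot be told apart. Predicted genes were the least secure: Gm3893 ran from 0.377 to 14.3 CPM among resting vector libraries, and Gm10800 from 2.67 to 13.0 CPM. Of these 8 predicted or chemosensory receptor genes, Gm4724 and Olfr1385 were clear of NT in both states. Kpna2, an importin alpha, was at 2.63 and 2.29 CPM in resting NT and 3.99, 2.59 and 7.96 CPM in resting vector. Its vector libraries under KCl (1.84, 2.25 and 10.8 CPM) lay on both sides of NT (3.55 and 3.47 CPM).

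Of the 44 genes without a role above, 34 were clear of NT in both states (72.5% of the 149 genes, 6.15% of genes past the level filter). Nhsl2 was at 72.5 and 64.9 CPM in resting NT and 148, 121 and 90.8 CPM in resting vector. Ptprr, a tyrosine phosphatase that acts on MAP kinases, was at 14.3 and 13.9 CPM in resting NT and 20.1, 20.1 and 21.5 CPM in resting vector, and at 15.1 and 9.98 CPM and 20, 21.9 and 22.6 CPM under KCl. Nwd2 was at 23.3 and 28.1 CPM and at 38.4, 33.6 and 35.3 CPM at rest, and at 23.9 and 20.5 CPM and 37.3, 38.4 and 40.9 CPM under KCl. Both kept a gap to NT in each state. Padi3, a peptidylarginine deiminase, differed mainly under KCl, with 2.84 and 1.87 CPM in NT and 9.42, 7.35 and 6.32 CPM in vector, while at rest a vector library (3.12 CPM) lay below an NT library (3.23 CPM). The telomere protein gene Pot1b, the ubiquitin ligase gene Traip, the kinase gene Cdkl1, Zcchc12, C2cd4c, Minar2, Dennd3, Vwa3a, Akap17b, Ccdc9b, Tmem91, Pced1b, Xkr7, Ypel1, Smim18, Abhd14a, Eef1akmt2, Prr16, D630023F18Rik and 1700007K13Rik were among the 34. The 10 that overlapped NT in at least 1 state were Stambpl1, Amy1, Qpct, Spred3, Gimap6, BC005561, Gstm6, Gmip, Padi3 and Hkdc1.

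**Figure D3:**
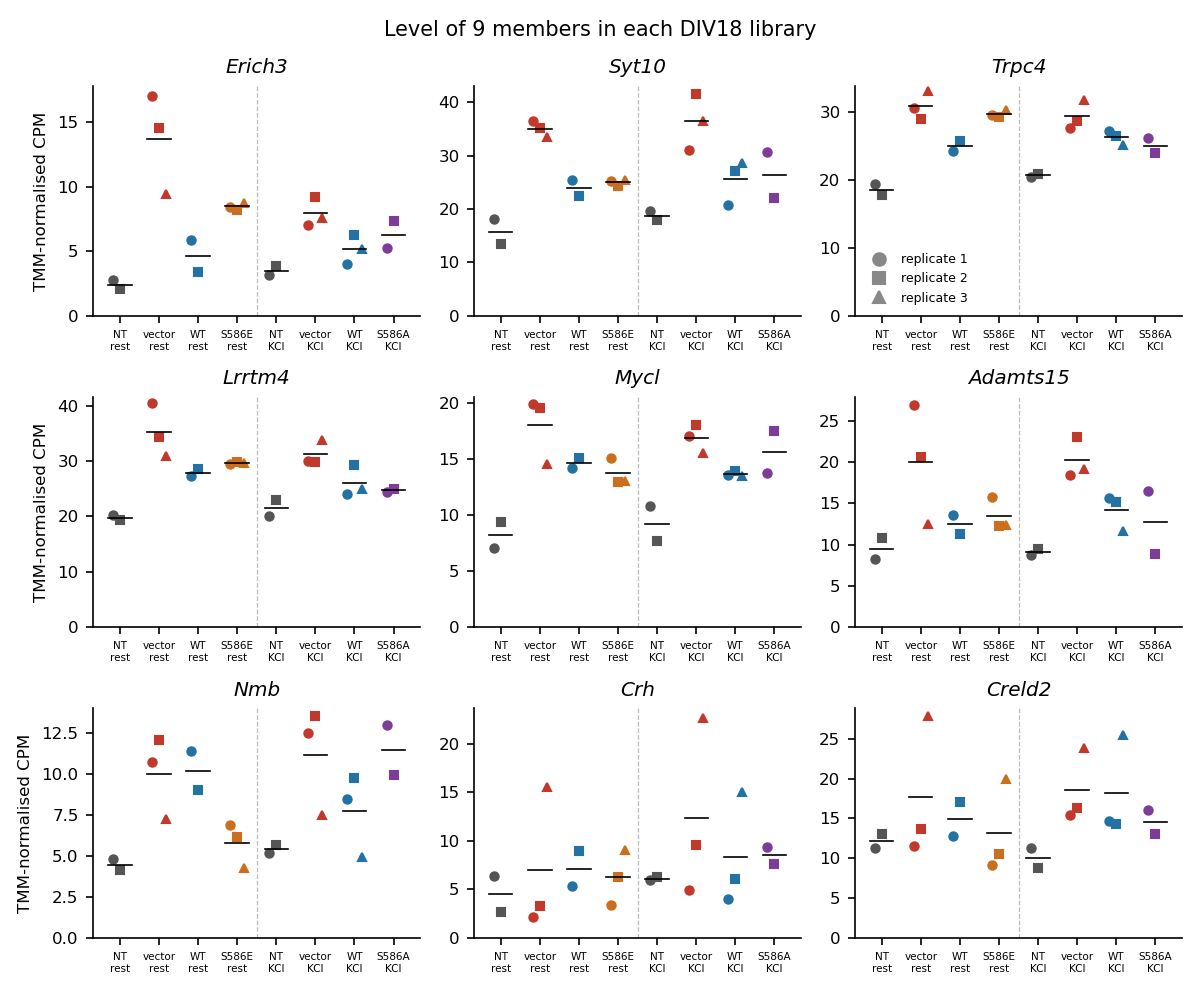
TMM-normalised CPM (y axis) of 9 of the genes in every DIV18 library, by group (x axis), with a bar at each group mean and a symbol for each replicate number. Syt10, Trpc4, Lrrtm4 and Mycl separate vector from NT in both states, whereas Crh and Creld2 are high in replicate 3.

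Return towards control was measured as the share of the way from the vector mean to the NT mean, on the scale of log2(CPM + 1), that each added construct covered. Vector had to be high and NT low for a gene to be chosen, so a further group lies between them partly through the choice, and the following counts are descriptions. At rest, WT covered a median of 52.4% of the way (quartiles 34.9% and 65.7%), its mean was below vector for 138 of 149 genes, and it was nearer to NT than to vector for 76. Under KCl, WT covered 39.2% (22% and 58.4%), with 139 below vector and 50 nearer to NT. S586E at rest covered 38.2% (20% and 56.4%), with 136 below vector and 49 nearer to NT. S586A under KCl covered 44.5% (21.9% and 76.9%), with 133 below vector and 67 nearer to NT. Means at or below NT were few, 8 for WT at rest, 4 for WT under KCl, 5 for S586E and 19 for S586A, so the usual position was part of the way.

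Libraries rather than means gave smaller numbers. All WT libraries lay below all vector libraries for 57 of the 149 genes at rest (12.1% of genes past the level filter) and for 36 under KCl (5.77%), all S586E libraries for 34 (5.59%) and all S586A libraries for 67 (13.3%). These shares depend on how many libraries a group holds, 2 for WT at rest and S586A and 3 for the others. The median level of the group over NT was 0.62 on the log2 scale in resting vector, 0.32 in WT and 0.40 in S586E, and under KCl 0.51 in vector, 0.32 in WT and 0.28 in S586A, while the median of all genes past the filter lay between -0.06 and 0.04 in every DIV18 library. The 149 genes took 0.248% to 0.287% of the counts in NT, 0.407% to 0.485% in vector and 0.327% to 0.399% in WT.

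**Figure D4:**
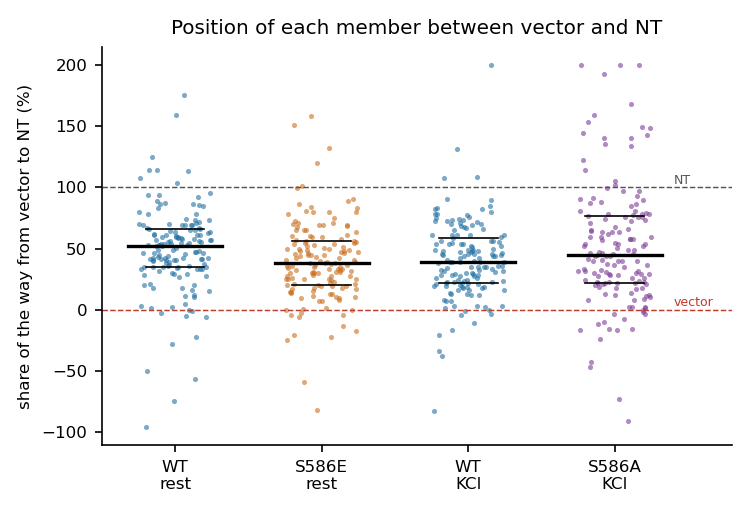
Share of the way from the vector mean (0%) to the NT mean (100%) covered by each construct, on the log2(CPM + 1) scale; each point is 1 of the 149 genes, bars mark median and quartiles, and 1 gene for WT under KCl and 3 for S586A that pass 200% are drawn at the edge. The medians lie at 52.4%, 38.2%, 39.2% and 44.5% from left to right.

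The position of the WT mean between vector and NT varied among the genes. How much of this came from the spread between libraries was not tested. WT was nearer to NT in both states for 29 genes and nearer to vector in both for 52. Among the 5 that came nearest to or past NT in both states were Col23a1, Zfand4, Sdk2 and Tenm1. The 5 that stayed nearest to or past vector were Nutf2, Palm3, Mark4, Hist1h1d and Qpct, of which Nutf2, a carrier of Ran into the nucleus, was past vector in both states. By role, WT at rest was nearer to NT for 11 of 16 adhesion or guidance genes, 5 of 7 ciliary genes, 5 of 8 channel genes and 10 of 18 transcription or RNA genes, against 0 of 6 for vesicle release and 2 of 7 for secreted peptides with Dlk1. The median shares of the way were 56.9%, 65.7%, 55.9%, 57.4%, 46.3% and 40.9% in the same order. The 0 of 6 thus goes with a median not far short of midway, above that of the secreted peptides. Under KCl the order of roles differed: WT was nearer to NT for 9 of 16 adhesion or guidance genes, 5 of 7 ciliary genes, 4 of 8 channel genes, 2 of 18 transcription or RNA genes, 4 of 6 genes of vesicle release and 3 of 7 secreted peptides with Dlk1. S586E at rest was nearer to NT for 3, 2, 1 and 3 genes of the first 4 of these groups. For vesicle release it was so for 1 of 6 and for secreted peptides with Dlk1 for 2 of 7. In the other roles at rest, WT and S586E were nearer to NT for 6 and 4 of 8 matrix or protease genes. The counts were 4 and 4 of 11 growth cone genes, 4 and 3 of 11 G protein genes and 1 and 3 of 3 folding genes. They were 6 and 3 of 8 predicted or chemosensory receptor genes, 1 and 0 of 2 nuclear import genes and 21 and 20 of 44 others. These role counts were not tested.

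Against the vector cultures the fit called none of the 149 genes lower by edgeR at an adjusted p of 0.05: 0 for WT at rest (0.00955% of all genes tested), 0 for WT under KCl (0.00478%), 0 for S586E (0.00478%) and 0 for S586A (0.00478%). At an unadjusted p under 0.05 by edgeR the counts were 48, 30, 48 and 43 (32.2%, 20.1%, 32.2% and 28.9%). Of genes past the level filter, 14.1%, 4.48%, 9.58% and 15.9% did so. DESeq2 called 4, 0, 2 and 2 of the 149. With the replicate number as a block, 1 gene was called lower in S586E and 0 in WT under KCl. The medians of the log2 fold changes were -0.33, -0.22, -0.26 and -0.28. Against NT, 0 were called higher in WT at rest (0.0764%). There 44 of the 149 had an unadjusted p under 0.05 by edgeR (9.76% of genes past the level filter), and DESeq2 called 8. WT under KCl had 3 called higher (0.0764%), namely Pidd1, Hist1h1d and Nwd2. S586E had 20 (1.04%) and S586A 1, Pidd1 (0.191%). The medians against NT were 0.33, 0.35, 0.44 and 0.33 in the same order. The count for S586E was 0 without NT replicate 2 and 12 without NT replicate 1. The vector and NT libraries in these comparisons also chose the genes.

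The comparison of S586E with WT at rest shares no library with the choice. None of the 149 genes was called by edgeR in either direction, nor was any of the 20940 genes tested (0%), and DESeq2 also called 0. The lowest adjusted p was 0.174, and 17 of the 149 (11.4%) had an unadjusted p under 0.05, against 17.7% of genes past the level filter. The median log2 difference was 0.07, and the S586E mean was above WT for 91 genes. Had no low-count filter been applied, 13 would have been called (1.9% of the genes then tested). Values farthest from WT by this test were those of Cfap44, at 2.42 and 2.85 CPM in WT and 4.34, 4.73 and 5.96 CPM in S586E (log2 difference 0.92, SE 0.271, edgeR adjusted p = 0.174), and of Erich3 (0.87, SE 0.268, adjusted p = 0.196). For both genes the S586E libraries lay above WT without overlap, yet neither passed the adjustment. On the other side stood Nmb (-0.82, SE 0.286, adjusted p = 0.241) and Pidd1 (-0.59, SE 0.202, adjusted p = 0.239).

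S586A against WT under KCl gave the same count. edgeR called 0 of the 149 and 0 of all genes (0%), DESeq2 0 of the 149, and 11 of the 149 (7.38%) had an unadjusted p under 0.05, against 8.81% of genes past the filter. The median difference was -0.05 and the lowest adjusted p was 0.369. With no filter on low counts 7 were called (0.547%). Lingo3, a leucine-rich repeat protein, was at 44.5, 35.3 and 50.5 CPM in WT and 49.2 and 91.4 CPM in S586A, so the groups overlapped and a single library was high. Unc5c was at 33.1, 43.4 and 40.9 CPM in WT and lower, at 31.8 and 25.7 CPM, in S586A (log2 difference -0.44, SE 0.156, adjusted p = 0.515). A p that misses the threshold does not show that the constructs act alike. S586E and S586A were measured in different states and were not compared with each other.

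In the WT cultures the genes were also compared between 30 min of KCl and rest. None of the 149 was called by edgeR in WT under KCl against WT at rest (0.043% of all genes), and DESeq2 called 1. By edgeR 5 of the 149 (3.36%) had an unadjusted p under 0.05, against 4.59% of genes past the level filter. With no filter on low counts 3 were called (0.474%). Hist1h1d had the lowest adjusted p, 0.182, at 23.7 and 19.7 CPM at rest and 10.6, 15.3 and 14.7 CPM under KCl (log2 difference -0.68, SE 0.143). The median over the group was 0.04.

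In the younger DIV7 neurons, which had no knockout, 34 of the 146 genes tested responded to KCl: 10 rose and 24 fell. Over all 19822 genes tested 17% were called, 7.34% as higher and 9.67% as lower, and among genes past the level filter 19.5%. DESeq2 called 23 of the group, and edgeR 15 without resting replicate 1 and 17 without resting replicate 2. The median log2 change was -0.03. On simulated counts 11.5% of the calls at DIV7 were of unchanged genes. Arap3, which switches off small GTPases, rose from 0.912 and 0.886 CPM to 2.33 and 2.15 CPM (log2 fold change 1.31, SE 0.238, edgeR adjusted p = 0.0121, higher in 2 of 2 depolarized libraries). Adcy8 rose from 10.2 and 11.8 CPM to 24.8 and 18.1 CPM (0.97, SE 0.161, adjusted p = 0.00899). Rgs16 rose as well, from 6.74 and 6.04 CPM to 11.3 and 9.62 CPM (0.71, adjusted p = 0.0133).

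Falls outnumbered rises at DIV7, as they did among genes past the level filter (1351 lower and 806 higher of 11036 tested). Adamts15 fell from 17.7 and 17.0 CPM to 7.61 and 7.54 CPM (log2 fold change -1.20, SE 0.0944, edgeR adjusted p = 6.03e-04). Zfp105, a zinc finger gene, fell from 4.07 and 3.26 CPM to 1.28 and 1.75 CPM (-1.28, SE 0.234, adjusted p = 0.0125). Gm43517, a predicted gene, fell from 8.10 and 7.33 CPM to 3.95 and 4.99 CPM (-0.79, adjusted p = 0.0169). The ephrin receptor Epha3 fell from 32.4 and 34.0 CPM to 18.4 and 20.7 CPM (-0.77, adjusted p = 0.00208), and Nktr, a cyclophilin-related protein, from 319 and 315 CPM to 219 and 221 CPM (-0.53, adjusted p = 4.92e-04). Sdf2l1, Creld2, Ciart, Nmb and Pidd1 were also among the 24. Of these, Sdf2l1 (adjusted p = 0.0475) and Nmb (adjusted p = 0.0372) lay near the threshold. No library was dropped, and with 2 against 2 libraries the fit has 2 residual degrees of freedom.

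**Figure D5:**
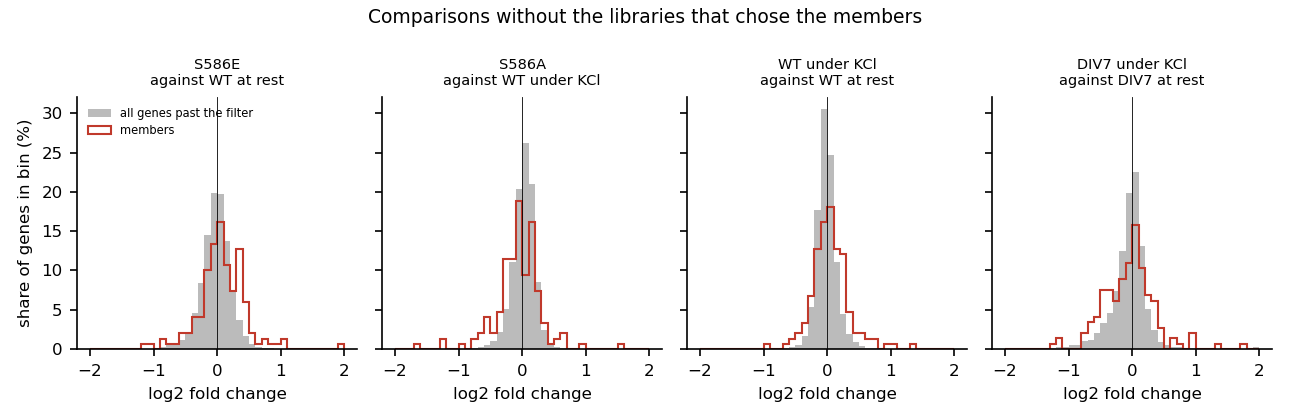
Share of genes (%, y axis) by log2 fold change (x axis, values past the ends drawn in the end bins) in the 4 comparisons that use no NT or vector library, for the 149 genes (line) and all genes past the level filter (grey). The medians of the 149 genes are 0.07, -0.05, 0.04 and -0.03.

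Levels per length were low, which the choice itself favours in NT, where a low value raises the ratio. The median was 2.95 TPM (transcripts per fixed library total, a level per length) in resting NT and 4.67 in resting vector, against 11.9 and 11.1 for genes past the filter, and 7.70 against 29.8 at DIV7. In resting NT 133 of the 149 had at least 1 TPM and 20 at least 10 TPM. Gene structure and position were not used by the rule. Their genomic span (median 26801 bases against 27148) and transcript length (3359 against 3068 bases) were close to those of other genes, with fewer exons (6.81 against 8.84) and less G and C in the transcript (47.8% against 50.4%).

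By position, the group was spread over the genome with a few neighbours. Chromosome 3 held 12 of the genes (8.05%, against 4.50% of genes past the filter), chromosome 18 held 8 (5.37% against 2.99%), among them the 4 protocadherins, and the X chromosome 7 (4.70% against 3.31%). Adjacent members were Rab40b, Fn3krp and Fn3k on chromosome 11 (121356125 to 121450491). Fn3k and Fn3krp, which remove sugars from glycated proteins, had resting ratios of 0.61 and 0.57. Fn3k was at 12.8 and 10.8 CPM in resting NT and 17.9, 17.5 and 18.7 CPM in resting vector, and Rab40b, a small GTPase, at 9.81 and 10.9 CPM and at 18.8, 18.3 and 18.6 CPM. The tight vector libraries of all these neighbours stood clear of NT. Prss12, the protease neurotrypsin, and Ndst3, a heparan sulfate enzyme, also lie side by side on chromosome 3. Over the fixed lists, 42 of the 149 genes belonged to at least 1 of 39 lists and 107 to none, and 20 lists held a member. The share of members among genes past the level filter was 1.35% in all. It was 13.8% for neuropeptides (4 of 29), and of these 4 only Nmb was clear of NT in both states. Cadherins and protocadherins had 7.14% (6 of 84), synaptic adhesion 6.35% (4 of 63), cilium 5.38% (5 of 93) and G protein signalling 4.07% (5 of 123). Short lists reached like shares with few members, such as heat shock and protein folding (11.1%, 2 of 18) and other ion channels (6.45%, 2 of 31). Solute carriers had 1.03% (2 of 194) and kinase and phosphatase signalling 0.498% (1 of 201). Members numbered 0 of 145 chromatin regulators, 0 of 92 ribosomal proteins and 0 of 83 homeodomain and neural transcription factors. With 1.35% of all genes past the filter chosen, lists of this length would hold few members, so these zeros say little.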

How the data were processed

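RNA of 24 libraries of cultured mouse cortical neurons was sequenced, after poly(A) selection at DIV7 and after removal of ribosomal RNA at DIV18, per the labels' protocols. FastQC, cutadapt and kallisto are named in the submitters' processing notes, without versions. The genome build and annotation are not given in the sources used here. Per the file headers, each deposited table gives an estimated count, an effective length and a TPM value for each transcript. The TPM values deposited by the authors (estimated counts per length, scaled to a fixed sum) were used only for levels per length, and the deposited effective lengths only for offsets. Of 142552 transcripts, 141429 matched GENCODE M21 (GRCm38), which gave gene names, classes and positions, and the rest (no more than 0.467% of any library) were left out.

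For the rule, estimated counts were summed per protein-coding gene and scaled to CPM, with 1 CPM added for ratios. For tests, sums over all genes were rounded and fitted with edgeR 4.0.16 in R 4.3.3 (two-sided quasi-likelihood test, TMM factors, filterByExpr, Benjamini-Hochberg adjustment over all genes tested, call at 0.05). A single fit held all 20 DIV18 libraries in 8 groups (20940 genes, biological coefficient of variation 14.6%), and DIV7 alone (19822 genes, 6.44%). Printed CPM values are TMM-normalised. DESeq2 1.42.0 and the settings named in the closing section were alternatives. Counts were simulated with 200 changed genes (41145 genes), all of which passed filterByExpr and lay above a set mean count. S586E against WT recovered 80% of log2 changes of 1 and 98% of those of 2, with 5.82% false calls. S586A against WT recovered 80% and 98%, with 5.32%. WT under KCl against rest gave 84% and 99%, with 7.11% false calls. DIV7 (39819 genes) gave 85% and 99%, with 11.5%, more than the 5% aimed at. Smaller changes, and changes in genes at lower counts, were not simulated, so the recovered shares do not hold for them.

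Same-numbered libraries deviated together, across genes, in WT against vector under KCl (correlations 0.185, 0.212 and 0.368) and in S586E against vector (0.388, 0.176 and 0.368). The numbers come from the labels. The main fit did not pair libraries by them, and the block on replicate number was an alternative only. Vector libraries of the 2 states also did (0.150, 0.140 and 0.333), but are not compared here. The other comparisons share at most 2 numbers and no label pairs them. Among these, WT against NT had correlations of 0.208 at rest and of 0.283 and 0.260 under KCl.

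The genes, the gene lists and the rule for naming genes were chosen with earlier results of these data known. Named by rule were Smarcc2, Smarcc1 and Pgk1, the 25 genes with the highest smaller ratio, those in a list, the 5 nearest NT and the 5 nearest vector in WT, up to 5 called in each comparison free of NT and vector libraries, and 3 genes on each side of the limit. Roles, and other genes named, were chosen after the names and values were seen. A few of the 149 genes are counted but not reported here by name.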

Additional observations from a re-analysis of the deposited data

How the results depend on the processing

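Under the alternatives tried the median log2 fold changes of the 149 genes kept their sign in every comparison of a construct with vector or NT, and without TMM factors that of vector over NT under KCl was 0.68 and that of S586A over vector -0.38. Counts of called genes were less stable. For vector over NT the count was 18 at rest with only the groups compared and 36 with length offsets, and under KCl it was 77 with no low-count filter, 51 by DESeq2 and 15 with length offsets. Against vector at rest, WT had 2 with no TMM factors, 21 with no filter and 4 by DESeq2, and S586E 14 with no filter and 2 by DESeq2. Under KCl WT had 10 with no filter, and S586A 18 with no filter and 2 by DESeq2. Against NT, WT at rest had 1 with median-of-ratios factors, 1 with GC offsets, 19 with no filter and 8 by DESeq2, and under KCl 20 with no filter, 1 by DESeq2, and 0 with only the groups compared or with length offsets. S586E had 48 with no filter, 31 by DESeq2 and 4 with length offsets, and S586A 2 with no TMM factors, 24 with no filter, 13 by DESeq2, and 0 with only the groups compared or with length offsets. With no filter 13 were called for S586E against WT, 7 for S586A against WT and 3 for WT under KCl against rest, where DESeq2 called 1. At DIV7, 19 were called with length offsets. The cause of these shifts was not tested.

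With the replicate number as a block, the counts were 51 for vector over NT under KCl, 3 for WT and 1 for S586E against vector at rest, 3, 5, 32 and 9 for WT at rest, WT under KCl, S586E and S586A against NT, and 56 at DIV7. Where libraries share only a number, the block is not a pairing. Leaving out 1 library gave 11 to 64 for vector over NT at rest, 1 to 18 under KCl, 0 to 1 for WT and for S586E against vector at rest, 0 to 1, 0 to 3, 0 to 12 and 0 to 3 in the same order against NT, and 15 to 24 at DIV7. The median of S586A over NT was then 0.30 to 0.37. Where such a fit left a single library in a group, that library was assumed to vary like the others. The rule found 91 of the 149 genes again with a mean of at least 1 CPM, 62 with at least 20 CPM, and 109 to 134 without 1 library.

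Directions of single genes in vector against NT reversed in a few settings. At rest Crh was at -0.40 with the block and, without 1 library, at -0.74 (vector replicate 3 left out) to 1.36. Gm14440 was then at -0.0497 (NT replicate 1 left out) to 10.04, a fitted value against a lone NT library at 0. Smarcc1 was at 0.12 with length offsets and at -0.16 to 0.0444 (NT replicate 2 left out) without 1 library. With length offsets under KCl, Col23a1 was at -0.32 and Kcna4 at -0.0052. The depth of 14510199 counts in the lowest library limits genes of a few CPM most.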
